A study of Arabidopsis thaliana with 6 samples.

Results

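The nad4 and nad7 genes of the Arabidopsis thaliana mitochondrial genome are described here through the reading frames of the ribosome footprints on their exons. Every periodicity row named nad4 or nad7 with an exon number was taken, which gave 4 exons of nad4 and 5 exons of nad7, or 9 of 140 rows. The intronless gene nad4L, despite its name, is a separate gene and was left out. The 140 rows also held 15 exons of nad1, nad2 and nad5, 8 exons of other genes with cis-spliced introns (cox2, ccmFc, rpl2 and rps3), 24 single-exon genes and 84 unassigned open reading frames. All 9 exons had values in all 3 footprint libraries, and the deposited gene levels held 0 rows for either gene in any of the 6 libraries. Footprint and RNA abundance of nad4 and nad7 were therefore not analysed here.

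The groups were the P2 phenotype and the P3 phenotype of an rps10 mutant, labelled Rps10 +/-, and wild type (WT), all in ecotype Col-0. RPS10 encodes S10, a small-subunit protein of mitochondrial ribosomes, from the nucleus. P2 and P3 carry the same labelled genotype and are not independent mutants. Mitochondria came from the youngest leaves of plants aged 9 to 10 weeks, and each footprint library pooled 15 preparations. All groups grew under short days of 8 h light and 16 h dark, and all their mitochondria received chloramphenicol at 100 µg/ml, which halts mitochondrial ribosomes on the message. Lysates for footprints were digested with 0.3 U of nuclease per OD260 unit in every group. Each group had 1 footprint library, so the differences below have no replicate check, and no test, standard error or p-value could be given. Isolations used about 15 g of leaves for the mutant and about 30 g for WT, and kanamycin was given to mutant seedlings only, so these factors and genotype cannot be told apart. Whole leaves were used, so a change in every cell and a change in the mixture of cells cannot be told apart either.

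The proteins ND4 and ND7 belong to complex I, the NADH dehydrogenase of the respiratory chain. ND4 is an antiporter-like proton-pumping subunit of the membrane arm, and ND7 is a core subunit of the arm that faces the matrix and helps form the quinone-binding site. Both plant genes are interrupted by group II introns, self-folding elements that in plants need nuclear-encoded splicing factors. In nad4 and nad7 the exons lie in order on 1 transcript and are joined in cis, unlike nad1, nad2 and nad5, some of whose exons are transcribed apart and joined in trans. A translating ribosome moves codon by codon, so its footprints tend to fall in 1 of 3 frames. The files give the share of a row's footprints in frames 0, 1 and 2, and an even spread would put 33.3% in each.

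Depth and library makeup differed between the groups. Reads on mitochondrial coding sequence numbered 80146 in P2, 48653 in P3 and 416254 in WT, and they made up 17.3% (95% Wilson interval 17.2 to 17.5), 14.9% (14.7 to 15.0) and 62.6% (62.5 to 62.7) of the mitochondrial footprint reads that were neither tRNA nor rRNA. Reads assigned to the nuclear genome were 1.90%, 1.77% and 14.0% of all filtered footprint reads. Those assigned to the plastid genome were 0.279%, 0.327% and 1.43%. The part of these differences in the frame shares was not tested. The intervals cover counting error only. Reads per exon were not given, so the depth behind each frame share is not known exactly. The shares of nad7 exon 5 in P2 and in P3 equal ratios of small whole numbers, so they could rest on few reads. The P3 shares of nad7 exons 1 and 2 also equal ratios of fairly small whole numbers, and could rest on few reads too.

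Frame 0 held a smaller share of the footprints in both mutant phenotypes than in WT for every one of the 9 exons. The median over exons was 29.6% in P2, 30.7% in P3 and 56.8% in WT. Frame 0 was the leading frame, the frame with the largest share, in 3 exons in P2, 3 in P3 and 6 in WT. The other exons were led by frame 1 (2 in P2, 2 in P3 and 1 in WT) or by frame 2 (4, 4 and 2). Frame 0 led in 64.3%, 60.7% and 87.5% of the 56 rows of named genes and in 44.6%, 43.7% and 71.2% of all rows with values. The 9 exons are part of both backgrounds, here and below, unless stated otherwise.

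**Figure D1:**
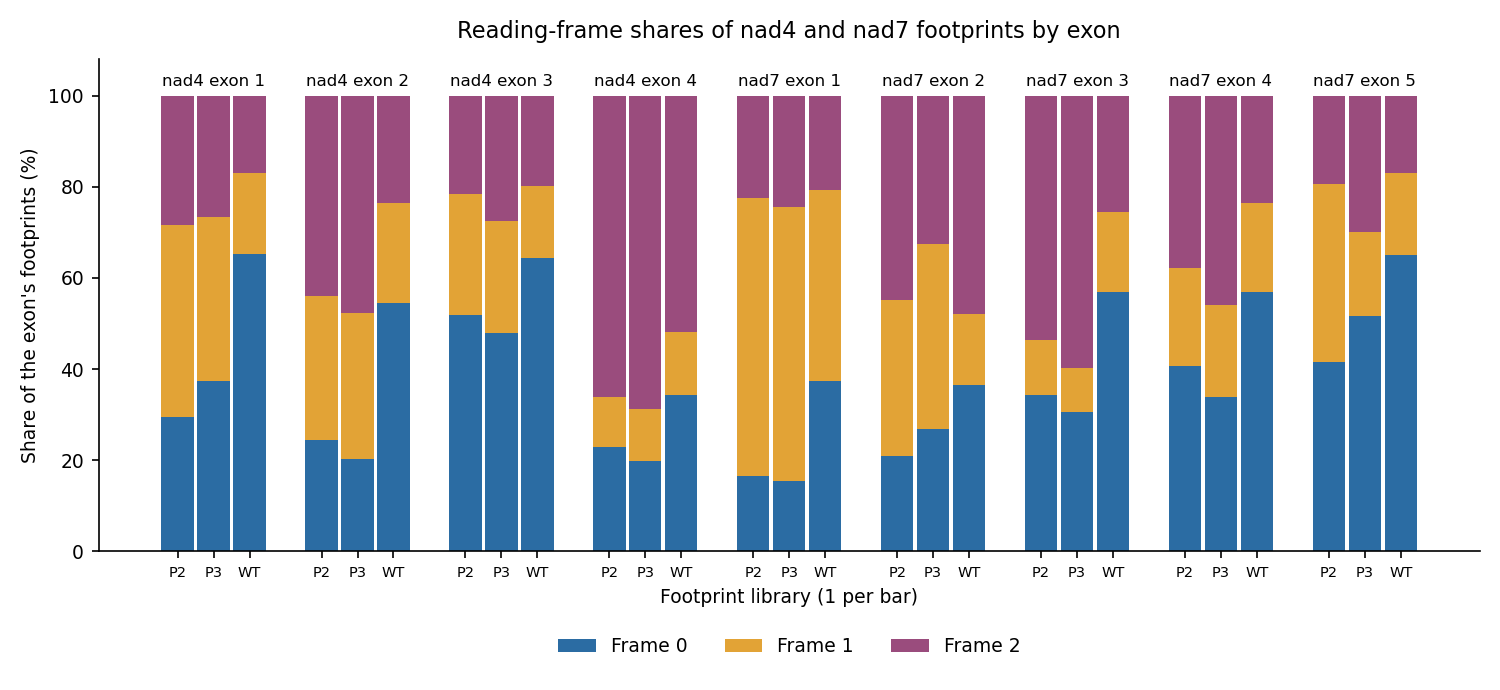
Stacked bars give the share of each exon's footprints (%) in frames 0, 1 and 2, with 1 bar per footprint library and the libraries in the order P2, P3 and WT. The frame 0 part is shorter in P2 and P3 than in WT in all 9 exons, and nad4 exon 4 is mostly frame 2 in every library.

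The 4 exons of nad4 differed widely among themselves. In exon 1, which opens the ND4 reading frame, frame 0 held 29.6% in P2 and 37.3% in P3, against 65.2% in WT. Frame 1 of that exon held 42.0%, 36.0% and 17.9%, and frame 2 held 28.4%, 26.7% and 16.9%. Exon 1 was thus led by frame 1 in P2, by a margin of 12.4 percentage points, and by frame 0 in P3, where frames 0 and 1 were only 1.27 points apart, against a frame 0 lead of 47.3 points in WT.

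In nad4 exon 2, frame 0 held 24.5% in P2 and 20.4% in P3, against 54.5% in WT. Frame 2 held 43.9% and 47.8%, against 23.5%, and frame 1 held 31.6% and 31.9%, against 22.0%. The leading frame was frame 2 in both phenotypes and frame 0 in WT, and frame 0 was the smallest of the 3 shares in both phenotypes.

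Exon 3 kept frame 0 in the lead in all 3 libraries. Its frame 0 share was 52.0% in P2, 47.9% in P3 and 64.3% in WT, the highest of any nad4 exon in each phenotype and second to exon 1 in WT. The frame 0 lead over the next frame was 25.4 points in P2 and 20.4 points in P3, against 44.3 points in WT.

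Exon 4, which closes the reading frame, was led by frame 2 in all 3 libraries. Frame 2 held 66.2% in P2 and 68.8% in P3, against 51.8% in WT, and frame 0 held 23.0% and 19.8%, against 34.2%. Frame 1 held 10.9%, 11.4% and 14.0%. The footprints of this exon were therefore more concentrated in 1 frame in P2 and P3 than in WT, although that frame was not frame 0.

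Over the 4 nad4 exons the frame 0 share averaged 32.3% ± 13.4 in P2, 31.3% ± 13.7 in P3 and 54.6% ± 14.4 in WT (SD over exons, which are not replicates). The spread between exons of this 1 gene, from 23.0% to 52.0% in P2, 19.8% to 47.9% in P3 and 34.2% to 65.2% in WT, was wider than the mean difference between either phenotype and WT. The ranges overlapped for that reason, while each exon compared with itself was lower in P2 and P3.

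The nad7 exons were of 2 kinds already in WT. Exons 1 and 2 were led by other frames there, and exons 3, 4 and 5 were led by frame 0. Whether frames were counted from the start codon or from each exon's first base was not given. The part of this in the leading frames was not tested. In exon 1, the start of the ND7 reading frame, frame 1 held 60.9% in P2 and 60.3% in P3, against 42.0% in WT. Frame 0 held 16.7% and 15.4%, against 37.3%, and these mutant values were the lowest frame 0 shares among the 9 exons. Frame 1 led by 38.4 points in P2 and 35.9 points in P3, against only 4.70 points over frame 0 in WT.

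In nad7 exon 2, frame 0 held 21.0% in P2 and 27.0% in P3, against 36.6% in WT. Frame 1 held 34.1% and 40.4%, against 15.5%, and frame 2 held 44.9% and 32.6%, against 47.9%. Frame 2 led in P2 and in WT and frame 1 led in P3, so frame 0 led in none of the 3 libraries. The P3 shares of this exon could rest on few reads, so its change of leading frame is uncertain.

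Exon 3 of nad7 had the largest gain of 1 frame among the 9 exons. Its frame 2 share was 53.7% in P2 and 59.8% in P3, against 25.5% in WT, while frame 0 held 34.3% and 30.7%, against 57.0%. Frame 1 held 12.0% and 9.49%, against 17.5%. The leading frame was thus frame 2 in both phenotypes and frame 0 in WT, and the frame 2 share in P3 was slightly above the frame 0 share in WT.

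Exon 4 showed the same ordering in P3 only. Frame 0 held 40.7% in P2 and 33.9% in P3, against 56.8% in WT, and frame 2 held 37.9% and 45.9%, against 23.5%. Frame 0 led by 2.80 points in P2, frame 2 led by 12.1 points in P3, and frame 0 led by 33.3 points in WT. Frame 1 held 21.4%, 20.2% and 19.6%.

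Exon 5, the last of nad7, was led by frame 0 in all 3 libraries. Frame 0 held 41.7% in P2 and 51.7% in P3, against 65.1% in WT. In P2 frame 1 followed closely at 38.9%, against 18.3% in P3 and 17.9% in WT, and frame 2 held 19.4%, 30.0% and 17.0%. The other frame with the larger gain over WT was thus frame 1 in P2 and frame 2 in P3. The shares of this exon in P2 and P3 could rest on few reads, so this contrast is uncertain. Over the 5 nad7 exons the frame 0 share averaged 30.9% ± 11.4 in P2, 31.7% ± 13.2 in P3 and 50.6% ± 12.9 in WT (SD over exons).

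A difference of at least 5 percentage points between libraries was used as the rule for calling a share higher or lower. By that rule frame 0 was lower in 9 of 9 exons in P2 than in WT and in 9 of 9 in P3. Among all rows with values in both libraries the same call was made for 72% in P2 and 71.7% in P3, and among the 56 rows of named genes for 89.3% in each. A lower frame 0 share was therefore the usual state of a gene row in these libraries, and the count of nad4 and nad7 exons stands close to that background. At 10 points the call was made for 9 of 9 exons in P2 and 8 of 9 in P3, beside 76.8% of gene rows in each and 62% and 61.6% of all rows. The P2 and P3 differences share the WT library.

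The size of the difference varied by exon. The frame 0 difference of P2 minus WT ran from -35.6 points in nad4 exon 1 to -11.3 points in nad4 exon 4, with a median of -20.6 points, beside -14.8 points over all gene rows. The P3 minus WT difference ran from -34.2 points in nad4 exon 2 to -9.59 points in nad7 exon 2, with a median of -21.9 points, beside -15.3 points over all gene rows. As averages over a gene's rows, nad4 differed by -22.3 points in P2 and -23.2 points in P3, the values ranked 3 and 5 from the lowest among 33 genes, and nad7 by -19.7 and -18.8 points, ranked 7 and 10. With the median difference of the gene rows subtracted, the nad7 averages were -4.84 and -3.52 points and no longer passed the rule, while those of nad4 were -7.48 and -7.90 points. After that subtraction 5 of the 9 exons were called lower in each phenotype, beside 32.1% of gene rows in each. With the median of all rows subtracted, 5 exons were again called in each, beside 34% of all rows in P2 and 34.3% in P3.

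The share lost by frame 0 went to different frames in different exons. In P2, frame 1 gained more than frame 2 in 5 exons (nad4 exons 1 and 3 and nad7 exons 1, 2 and 5) and frame 2 gained more in 4. In P3, frame 1 gained more in 4 exons, since nad7 exon 5 changed sides, and frame 2 in 5. The largest gain in P2 was that of frame 2 in nad7 exon 3, by 28.2 points, and the same frame and exon had the largest gain in P3, by 34.3 points. Next in P2 were frame 1 of nad4 exon 1, by 24.1 points, and frame 1 of nad7 exon 5, by 21.0 points.

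By the 5-point rule frame 1 was higher in 6 of 9 exons in P2 and 5 of 9 in P3, against 73.2% and 75% of gene rows. Frame 2 was higher in 5 of 9 exons in P2 and 7 of 9 in P3, against 50% of gene rows in each. Over all rows, unassigned open reading frames included, the backgrounds were 67% and 67.7% for frame 1 and 46% and 43.4% for frame 2. Losses outside frame 0 also occurred: frame 1 of nad7 exon 3 differed by -5.57 points in P2 and -8.05 points in P3, and frame 2 of nad7 exon 2 by -2.97 points in P2 and -15.3 points in P3.

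**Figure D2:**
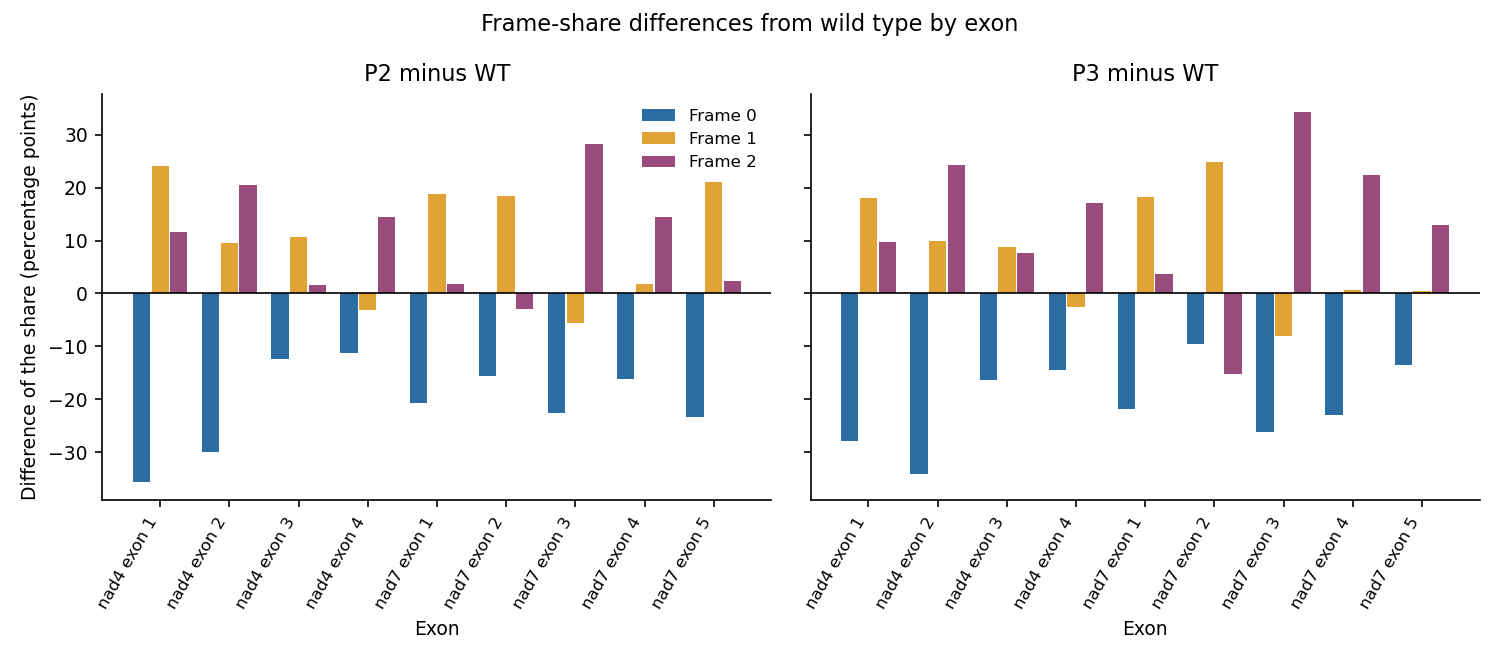
Bars give the difference of the share in each frame (percentage points) for P2 minus WT on the left and P3 minus WT on the right, for the 9 exons. Frame 0 bars lie below 0 throughout, and the tallest bar above 0 is frame 2 of nad7 exon 3 in both panels.

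The rows led by frame 1 or 2 were counted next. They were 6 of 9 exons in P2, 6 of 9 in P3 and 3 of 9 in WT. The same held for 33.9%, 37.5% and 10.7% of the 56 gene rows and for 40.8%, 51.6% and 21.2% of all rows. Without the 9 exons, frame 1 or 2 led in 27.7%, 31.9% and 6.38% of gene rows. All 6 exons in each phenotype kept this state when the leading frame had to exceed the next by 5 points, and 2 of the 3 in WT did, the exception being nad7 exon 1. Frame 0 itself held less than an even 33.3% in 5 of 9 exons in P2, 5 of 9 in P3 and 0 of 9 in WT. The same held for 26.8%, 30.4% and 5.36% of gene rows and for 38.5%, 45.2% and 21.2% of all rows.

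Gene rows led by another frame in WT numbered 6 of 56, and 3 of them were nad4 and nad7 exons. The remaining 3 were nad2 exon 5, rpl2 exon 2 and rpl16. The part of frame counting, from the start codon or from an exon's first base, in the exon rows was not tested. The WT shares of rpl2 exon 2 were 25%, 50% and 25% in frames 0, 1 and 2, so this row could rest on few reads. In nad4 exon 4 and nad7 exon 1 the frame that led in WT also led in both phenotypes and by a wider margin, so the largest share of the row was higher in P2 and in P3 than in WT. The leading share was thus larger than in WT in 2 of 9 exons in P2. In P3, where nad7 exon 3 was added, it was larger in 3 of 9. The same held for 8.93% of gene rows in each phenotype and for 9% and 17.2% of all rows. Without the 9 exons, it held for 6.38% of gene rows in P2 and 4.26% in P3. For the remaining nad4 and nad7 exons the leading share was smaller than in WT, with differences down to -23.4 points in P2 (nad7 exon 5) and -27.9 points in P3 (nad4 exon 1).

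Rows of other genes were set beside these exons by kind. The median frame 0 share of the 24 single-exon genes was 47.0% in P2, 45.0% in P3 and 59.2% in WT, and frame 1 or 2 led in 2, 3 and 1 of them. The single-exon complex I genes nad3, nad4L, nad6 and nad9, which encode other subunits of the membrane arm and, in the case of nad9, the matrix arm, were led by frame 0 in all 3 libraries, 4 of 4 in each. Their frame 0 shares ran from 43.7% to 47.1% in P2, 36.7% to 50.4% in P3 and 57.1% to 67.3% in WT. The nad4 and nad7 exons thus had a lower median than the single-exon genes in both phenotypes and a WT median within 3 points of theirs.

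Exons of other split genes also had lower medians than the single-exon genes in both phenotypes. The 15 exons of nad1, nad2 and nad5, also complex I genes, had a median frame 0 share of 38.1% in P2, 33.9% in P3 and 56.3% in WT, and 8, 8 and 1 of them were led by frame 1 or 2. Among them nad5 exon 3, led by frame 1 in P2, could rest on few reads. Its WT shares were 50%, 50% and 0% in frames 0, 1 and 2. The 8 exons of cox2, ccmFc, rpl2 and rps3 had medians of 35.8%, 24.2% and 55.8%, with 3, 4 and 1 led by frame 1 or 2. Over the 23 exon rows of other genes, 11 were led by frame 1 or 2 in P2, 12 in P3 and 2 in WT. The length of each row and the reads behind it are unknown here, and with 1 library per group none of these differences between kinds of genes could be tested.

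**Figure D3:**
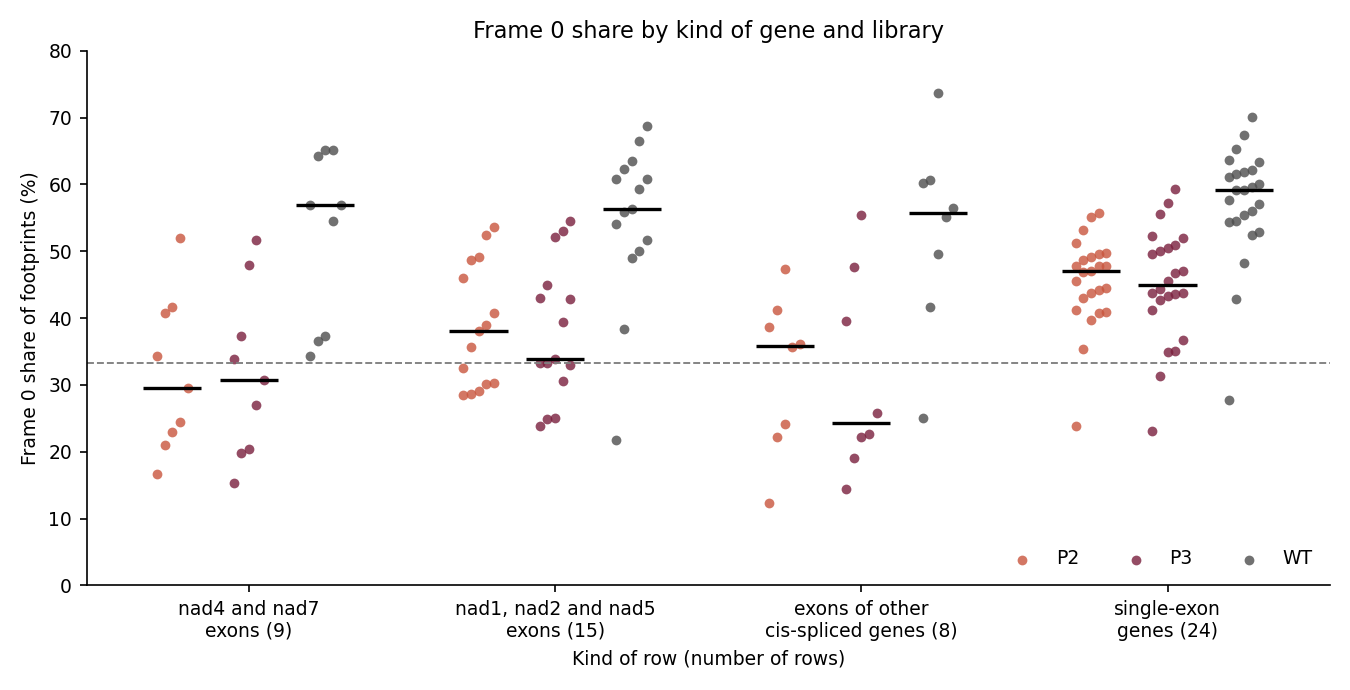
Points give the frame 0 share (%) of each gene row in P2, P3 and WT, by kind of row. Black lines mark medians and the dashed line marks an even 33.3%. The nad4 and nad7 medians in P2 and P3 (29.6% and 30.7%) lie below the dashed line, and those of the single-exon genes (47.0% and 45.0%) above it.

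The P3 and P2 libraries were then compared directly. The median difference of the frame 0 share over the 9 exons, P3 minus P2, was -3.15 points, beside -0.72 points over all gene rows. By the 5-point rule frame 0 was higher in P3 in 3 exons (nad7 exon 5 by 10.0 points, nad4 exon 1 by 7.72 points and nad7 exon 2 by 5.95 points) and lower in 1 (nad7 exon 4, -6.86 points). Among gene rows 16.1% were called higher and 25% lower, and among all rows 25.2% and 29.3%. At 10 points 1 exon (nad7 exon 5) was higher and 0 were lower in P3, beside 7.14% of gene rows and 18.7% of all rows in each direction. The shares of nad7 exon 5 could rest on few reads in both phenotypes, and those of nad7 exon 2 in P3. With any difference counted, 6 of 9 exons were lower in P3, beside 51.8% of gene rows and 45.5% of all rows. The gene averages differed by -0.91 points for nad4 and 0.83 points for nad7, which is less than the difference of any single nad4 or nad7 exon between P3 and P2.

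The leading frame was the same in P3 and P2 in 6 of 9 exons, beside 76.8% of gene rows and 60.2% of all rows, so this count stands near the background. The exceptions were nad4 exon 1 (frame 0 in P3 and frame 1 in P2), nad7 exon 2 (frame 1 in P3 and frame 2 in P2) and nad7 exon 4 (frame 2 in P3 and frame 0 in P2). In nad4 exon 1 the P3 lead was 1.27 points, and in nad7 exon 4 the P2 lead was 2.80 points. In nad7 exon 2 the leads were 7.87 points in P3 and 10.9 points in P2, but its P3 shares could rest on few reads.

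**Figure D4:**
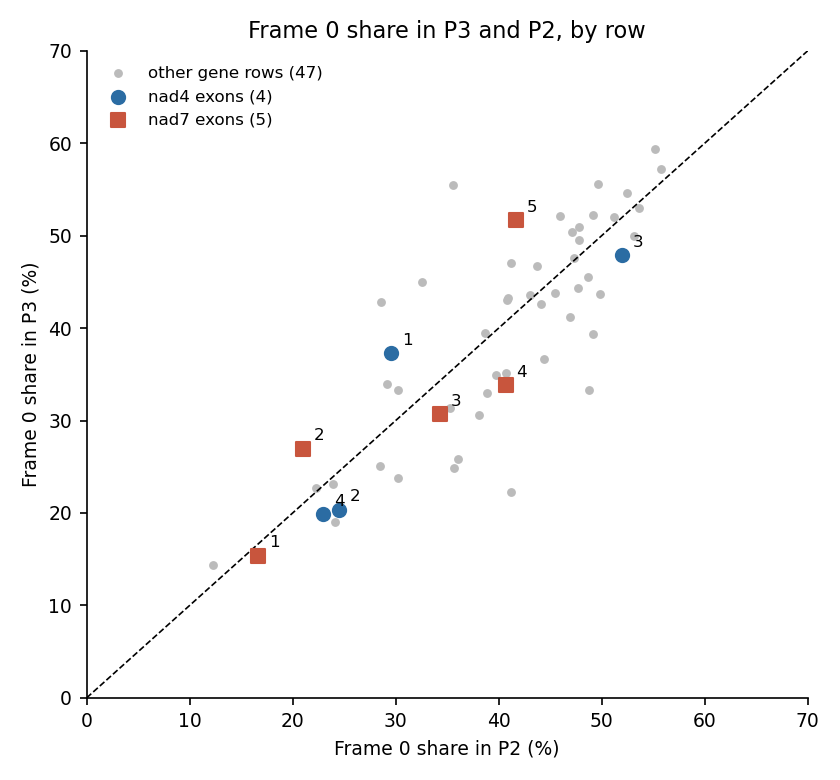
The frame 0 share (%) in P3 is plotted against that in P2 for each nad4 exon (circles), each nad7 exon (squares) and the 47 other gene rows (grey), with exon numbers beside the points and equal values on the dashed line. Of the 9 exons, 3 lie more than 5 points above the line, with nad7 exon 5 the farthest at 10.0 points. The other 6 lie below it, with nad7 exon 4 the farthest at -6.86 points.

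Likeness between genes was measured as the Euclidean distance over the 9 mean shares (3 frames in 3 libraries), with exons averaged within a gene. Among the 32 other genes the one nearest to nad4 was nad7, at a distance of 11.3 percentage points, followed by nad2 at 19.6 and nad1 at 21.1. The genes nearest to nad7 were nad4 at 11.3, rps3 at 14.0 and nad1 at 14.5. The 9 shares rest on the same 3 libraries and on exon averages that hide the differences described above, so these distances are a description of these libraries only.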

How the data were processed

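Frame shares were deposited by the authors as a fraction of footprints in frames 0, 1 and 2 per gene, exon or open reading frame, per the file headers, and the 3 fractions of a row summed to 1. They were multiplied into percentages here. Gene levels were deposited by the authors as TPM over 24 genes and were used only to look for nad4 and nad7. Read numbers per class of sequence came from the summary sheets the authors deposited. STAR and featureCounts are named in the submitters' processing notes. Their versions, the genome build, the annotation, the read lengths kept and the assignment of footprints to a frame were each not given in the sources used here. Any of these could shift shares between frames.

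Samples were grouped by library title. The members and gene lists were chosen with earlier results of these data known. The text names all 9 exons and the 3 genes nearest to each gene in frame profile. Shares were compared as differences, with calls at 5 percentage points, and 10 points as an alternative. Equal largest shares counted as a tie. No test was possible with 1 library per group. Shares of reads carry 95% Wilson intervals. The arithmetic was tested on simulated data. Python 3.11.15, pandas 2.3.3 and SciPy 1.17.1 were used.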

Additional observations from a re-analysis of the deposited data

How the results depend on the processing

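No paired analysis was possible because each group had 1 footprint library. Weighting exons by length, leaving out the shortest exon and counting frames from the spliced reading frame were planned and not run, since exon lengths and phases were not used here. Subtracting the median difference of all rows (-13.5 points in P2 and -13.4 in P3) left 5 of 9 exons lower in frame 0 in each phenotype, beside 34% and 34.3% of all rows. Subtracting that of gene rows, an alternative chosen after seeing the data, also left 5 in each, beside 32.1% of gene rows, and put nad7 at -4.84 and -3.52 points. At 10 points, 9 exons were lower in P2, 8 in P3, and 0 for P3 minus P2, and any difference gave 6 for P3 minus P2, beside 51.8% of gene rows. Exons led by frame 0 in P2 numbered 1 when a 5-point lead was needed. The median over exons was 27.0% for nad4 in P2 and 56.8% for nad7 in WT, against means of 32.3% and 50.6%. Leaving out each exon in turn moved the nad4 mean between 25.7% and 35.3% in P2, 25.8% and 35.2% in P3, and 51.0% and 61.3% in WT, and the count of exons lower in P3 than in P2 between 0 (without nad7 exon 4) and 1. The lowest mutant means were those without nad4 exon 3, and the highest WT mean was that without nad4 exon 4. The mean differences from WT kept their direction under each alternative run.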
